A study of Mus musculus with 3 samples.

Results

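The genes described here encode factors that build ribosomes in the nucleolus. They were a list of 40 mouse genes, and their rows in the deposited table were found by the platform's gene symbol, or by its current name where RefSeq lists the old symbol as a synonym. Of the 40 genes, 37 had 1 row each, 34 had a value on all 3 arrays, and these 34 were read against all 10179 genes that had a name and were complete across the arrays. No row carried the name of Polr1a, Polr1b or Polr1c, and Nop16, Pes1 and Rrp1b had a value on 1 array each.

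The study hybridised liver RNA of female C57BL/6 mice to 3 microarrays with 2 channels each. The Cy3 channel held TMX-/- (TMX-null) liver 24 h after an intraperitoneal dose of 3 ng LPS with 10 mg D-galactosamine (LPS/GalN), untreated TMX-null liver, or wild-type liver 24 h after the same dose, and the Cy5 channel of every array held untreated wild-type liver. LPS is a bacterial cell wall component, D-galactosamine depletes uridine nucleotides in hepatocytes, and TMX is a thioredoxin-related membrane protein of the endoplasmic reticulum. The labels give neither the age of the mice, nor the way the gene was deleted, nor whether a channel held 1 mouse or a pool, and each group had 1 array, so no difference was tested and no p-value is given.

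Ribosomes are assembled from ribosomal RNA, which RNA polymerase I transcribes in the nucleolus, and from ribosomal proteins. Small nucleolar ribonucleoproteins (snoRNPs) modify the RNA at sites chosen by their guide RNAs, the small subunit processome folds and cleaves the precursor, and a further set of factors assembles and exports the large subunit. In liver these genes are known to be high when hepatocytes grow, as after partial hepatectomy.

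All values below are log2 ratios to untreated wild-type liver, with each array set to a median of 0 over the 10179 genes, or differences of such ratios between arrays. A gene is counted as higher or lower at 2-fold, a log2 value of 1 in size. The direction of the ratio is not stated in the labels, and liver over untreated wild-type liver is likely from Tmx1, the gene of TMX, which stood at -3.88 in treated TMX-null, -2.96 in untreated TMX-null and 0.59 in treated wild-type liver. With the opposite numerator every direction turns. The only error at hand is the SD of a single probe over 81 genes with 2 probes, which was 0.76, 0.42 and 0.42 on the treated TMX-null, untreated TMX-null and treated wild-type arrays. It was 0.59 for the difference between treated TMX-null and treated wild-type liver and 0.67 for that between treated and untreated TMX-null liver. The arrays had unequal spreads, with SDs over genes of 1.04, 0.40 and 0.48.

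Sequences upstream of 4 of these genes are shown first, chosen after their values were seen, because most of the list stood high together in 1 liver while Nop10 did not. RefSeq's table of promoters (GRCm38.p6) held 34 of the 40 genes, and the 250 bases before the start of each were searched on both strands for CACGTG, the E-box bound by MYC with MAX, and for CCGGAAG, a core motif of the ETS family. Capitals mark these motifs, and each window is written on the strand of its gene, 5′ to 3′. Nhp2 (chr11:51619523-51619772, + strand) and Gar1 (chr3:129831397-129831646, - strand) stand for the snoRNP genes with large ratios, Utp18 (chr11:93885767-93886016, - strand) for the processome and for windows with both motifs, and Nop10 (chr2:112261676-112261925, + strand) for the gene that stood apart.
Nhp2: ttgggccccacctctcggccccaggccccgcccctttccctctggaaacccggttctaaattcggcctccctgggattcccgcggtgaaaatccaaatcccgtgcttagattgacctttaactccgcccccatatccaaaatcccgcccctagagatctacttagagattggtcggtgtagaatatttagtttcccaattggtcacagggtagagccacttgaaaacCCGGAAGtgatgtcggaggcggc
Gar1: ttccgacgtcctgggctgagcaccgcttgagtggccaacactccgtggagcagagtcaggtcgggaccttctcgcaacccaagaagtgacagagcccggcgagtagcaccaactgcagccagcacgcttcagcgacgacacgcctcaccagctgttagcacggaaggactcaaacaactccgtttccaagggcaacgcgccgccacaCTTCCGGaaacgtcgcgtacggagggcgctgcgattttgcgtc
Utp18: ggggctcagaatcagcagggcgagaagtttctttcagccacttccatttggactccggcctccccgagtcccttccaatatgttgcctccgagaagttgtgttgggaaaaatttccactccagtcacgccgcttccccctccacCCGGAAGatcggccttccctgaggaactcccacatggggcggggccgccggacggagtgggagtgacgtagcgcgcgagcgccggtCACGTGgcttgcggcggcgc
Nop10: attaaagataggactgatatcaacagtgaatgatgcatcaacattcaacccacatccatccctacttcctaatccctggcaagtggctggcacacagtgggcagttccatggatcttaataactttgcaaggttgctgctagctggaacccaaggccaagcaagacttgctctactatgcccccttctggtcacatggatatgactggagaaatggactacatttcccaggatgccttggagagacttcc

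Of the listed genes, 28 had both such a window and a value on all 3 arrays. CCGGAAG was found upstream of 8 of these 28 (28.6%), against 14.8% of all 8244 genes with a window and 3 values. CACGTG was found upstream of 2 of 28 (7.14%), namely Nop2 and Utp18, against 9.58% of the 8244. The Nop10 window held neither, and neither did those of Polr1e, Nop56, Nop58 and Ncl, which had ratios of 1.88, 1.82, 1.82 and 1.93 in treated TMX-null liver. Heatr1, Nolc1 and Nop2 had CCGGAAG with ratios of 0.41, 0.45 and 0.46. The 8 genes with CCGGAAG had a median ratio of 1.15 in treated TMX-null liver and the 20 without it 1.20, and their ranges overlapped. The 2 motifs share no bases in the Utp18 window, and these are matches of letters, with no measurement of binding.

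Ribosome biogenesis genes stood high as a group in treated TMX-null liver and nearer the level of untreated wild-type liver in the other 2 livers. Of 34 genes, 23 stood at least 2-fold higher than untreated wild-type liver and 0 lower, where 13.6% of all genes were higher and 13.2% lower, and the median of the genes was 1.15. In the untreated TMX-null liver the median was 0.20 and 0 of 34 genes were higher and 0 lower, where 1.78% of all genes were higher and 0.835% lower. It was also 0.20 in treated wild-type liver, with 0 of 34 higher and 1 lower, where 2.8% were higher and 1.75% lower. Of the 34 genes, 26 were above 0 in untreated TMX-null and 25 in treated wild-type liver, where 50% of all genes were. For 33 of the 34 genes treated TMX-null liver had the highest of the 3 ratios, as it had for 41.9% of all genes, and Nop10 was the exception. All 3 ratios share the untreated wild-type RNA as their denominator. Scaling the arrays to the same spread left 10 of the 34 genes 2-fold higher in treated TMX-null liver, where 4.97% of all genes were. The median of the 34 was then 0.71 in treated TMX-null, 0.32 in untreated TMX-null and 0.26 in treated wild-type liver. Treated TMX-null liver then had the highest ratio for 27 of the 34 genes, and for 33.1% of all genes. For untreated TMX-null liver, 68.0% of all genes past 2-fold were the higher ones, 56.6% after this scaling, and 86.3% when every gene with a value on that array was used. With the opposite numerator these would be the lower ones.

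**Figure D1:**
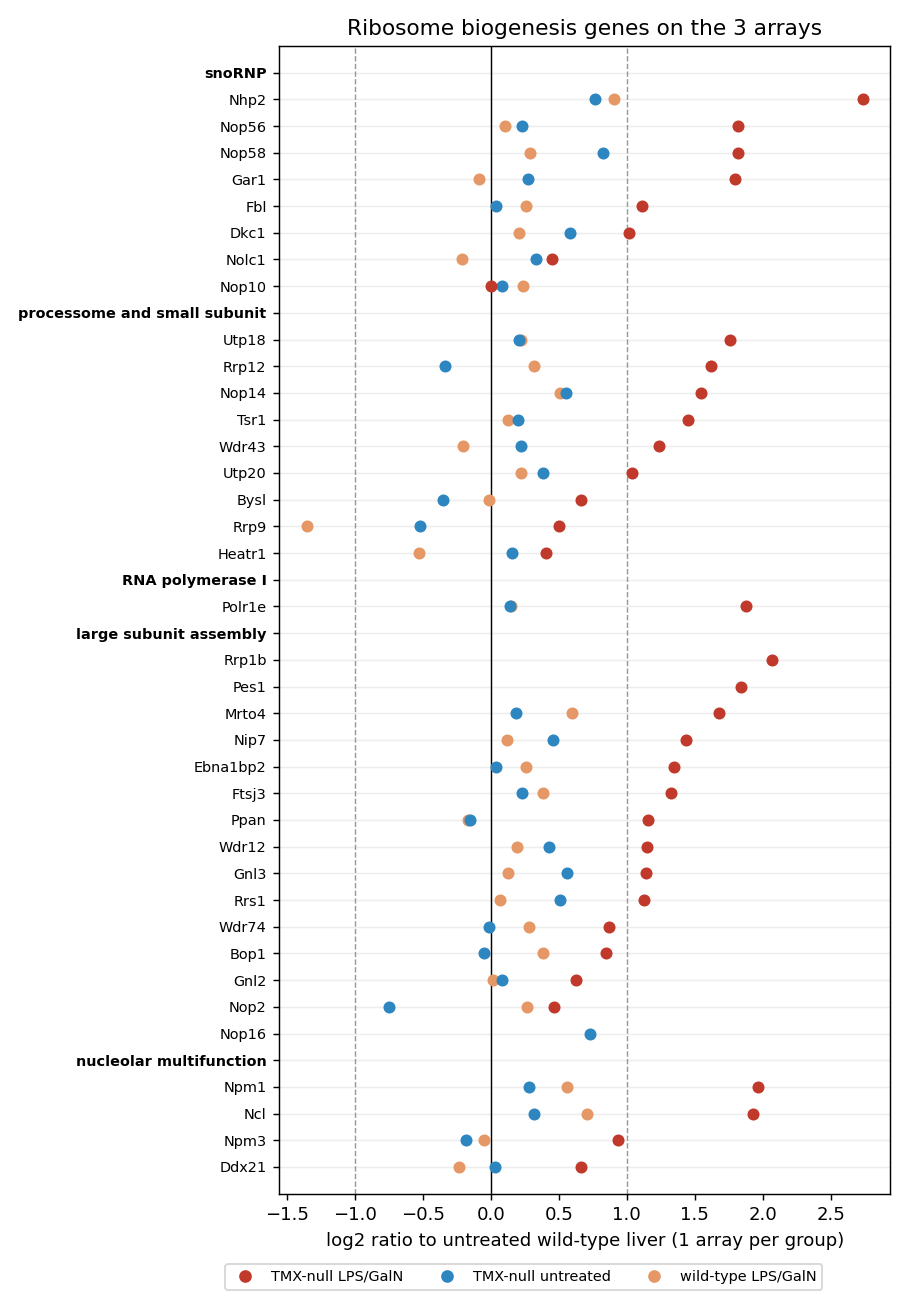
Log2 ratio to untreated wild-type liver (x axis) for each of the 37 genes with a value (y axis, grouped by role); each point is 1 array, and dashed lines mark 2-fold. The points of treated TMX-null liver lie to the right of the other points in 33 of the 34 genes with 3 values, with Nhp2 at 2.74 and Nop10 at 0.

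Set against treated wild-type liver, treated TMX-null liver had 19 of 34 genes at least 2-fold higher and 0 lower, where 9.64% of all genes were higher and 10.6% lower. The median difference was 1.05, against 0.011 over all genes. The 34 differences ran from -0.24 for Nop10 to 1.88 for Gar1, 33 were above 0, and 31 exceeded the SD of a single probe (0.59). Of all genes, 50.6% were above 0 and 20.8% exceeded that SD. Their SD of 0.48 was smaller than that of a single probe, so the order of neighbouring genes is not resolved. A further 12 of the 34 lay between 0.5 and 1, under the 2-fold limit, where 14.8% of all genes did. With the arrays scaled to the same spread, 3 of 34 were 2-fold higher, where 4.38% of all genes were, the median was 0.51, and Nop2 changed sign.

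The response to LPS/GalN without TMX, treated minus untreated TMX-null liver, also had 19 of 34 genes at least 2-fold higher and 0 lower, where 11.4% of all genes were higher and 12.1% lower. The median difference was 1.02, and 25 of 34 exceeded the SD of a single probe (0.67), as 20.2% of all genes did. Both differences rest on the same array of treated TMX-null liver, so they are not independent. In these differences the untreated wild-type RNA cancels, if the same preparation was used on each array. With the arrays scaled to the same spread, 3 of 34 were 2-fold higher, where 6.56% of all genes were, 28 of 34 were above 0, where 49.0% of all genes were, and Dkc1, Gnl3, Nolc1, Nop58 and Rrs1 changed sign.

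**Figure D2:**
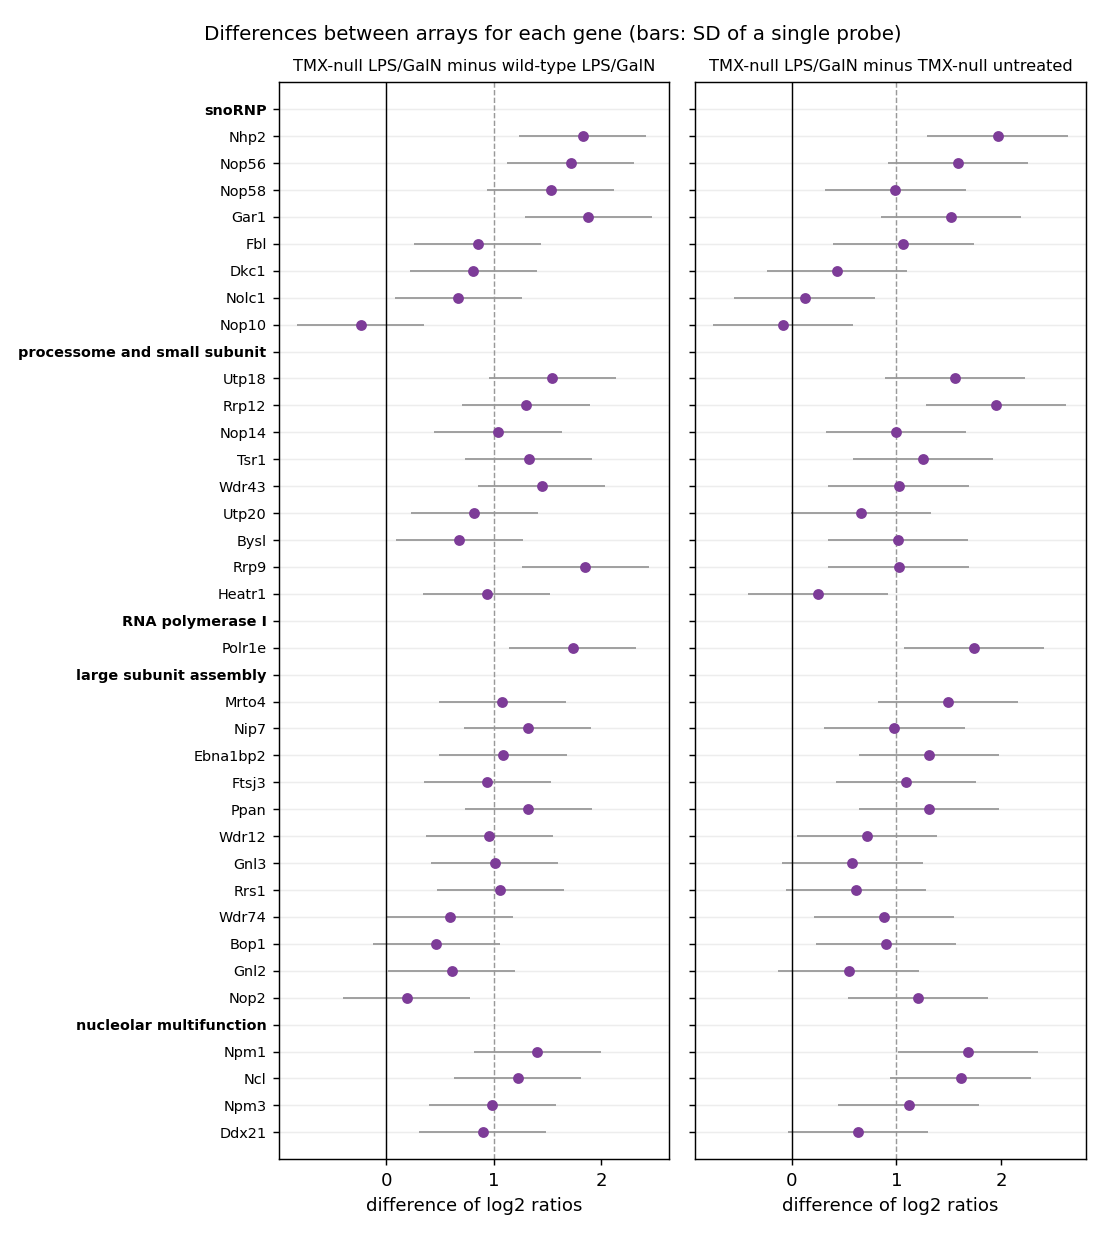
Difference of log2 ratios (x axis) for the 34 genes with 3 values (y axis, grouped by role), treated TMX-null minus treated wild-type liver on the left and treated minus untreated TMX-null liver on the right; bars are ± 1 SD of a single probe, 0.59 and 0.67. Of the 34 points, 33 lie above 0 in each panel, and Nop10 lies below.

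Among the snoRNP genes, 6 of 8 were at least 2-fold higher in treated TMX-null than in untreated wild-type liver, where 13.6% of all genes were. The median of the snoRNP genes was 1.45. Their median was 0.30 in untreated TMX-null and 0.22 in treated wild-type liver. This group held both the highest gene of the list and the lowest, so its spread was the widest, with an SD of 0.87 against 0.51 for processome genes and 0.35 for large subunit genes in treated TMX-null liver.

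The 4 proteins of the H/ACA core, which converts uridine in ribosomal RNA to pseudouridine, did not stand together. Nhp2, an RNA-binding protein of the core, had ratios of 2.74 in treated TMX-null, 0.77 in untreated TMX-null and 0.91 in treated wild-type liver. It was the gene with rank 98 from the highest among 10179 in treated TMX-null liver and stood 3.55-fold above treated wild-type liver. Gar1, a further protein of the core, had 1.79 in treated TMX-null, 0.27 in untreated TMX-null and -0.08 in treated wild-type liver. Its difference between the treated livers (1.88, 3.68-fold) was the largest of the list. Dkc1, the pseudouridine synthase itself, had 1.01 in treated TMX-null, 0.58 in untreated TMX-null and 0.20 in treated wild-type liver. Its difference between treated and untreated TMX-null liver, 0.43, was within the SD of a single probe. Nop10, the smallest subunit of the core, had 0 in treated TMX-null liver to 2 decimals, 0.08 in untreated TMX-null and 0.24 in treated wild-type liver. All 3 of these lie within the SD of a single probe of 0. Each of the 4 genes was read by a single probe, and whether the probe or the transcript sets Nop10 apart was not tested.

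The C/D core, which places methyl groups on ribose, was more even in treated TMX-null liver. Its SD over 3 genes was 0.41 there, against 1.16 for the 4 of the H/ACA core. In treated wild-type liver the SDs were 0.10 and 0.42, but in untreated TMX-null liver they were 0.41 and 0.31. Nop56, a scaffold protein, had 1.82 in treated TMX-null, 0.23 in untreated TMX-null and 0.10 in treated wild-type liver. Nop58, its partner and relative, had 1.82 in treated TMX-null, 0.83 in untreated TMX-null and 0.29 in treated wild-type liver. The pair had nearly equal ratios in treated TMX-null liver, but Nop58 had the highest ratio of the list in untreated TMX-null liver, so its difference between treated and untreated TMX-null liver was 0.99 against 1.59 for Nop56. Fbl, the methyltransferase fibrillarin, had 1.11 in treated TMX-null, 0.04 in untreated TMX-null and 0.26 in treated wild-type liver. Nolc1, a nucleolar phosphoprotein that chaperones both kinds of snoRNP, had 0.45 in treated TMX-null, 0.33 in untreated TMX-null and -0.22 in treated wild-type liver, and was not past 2-fold in any comparison.

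Among the processome and small subunit genes, 6 of 9 were at least 2-fold higher in treated TMX-null than in untreated wild-type liver. Of all genes 13.6% were, and the median of the 9 was 1.24. All 9 stood higher in treated TMX-null than in treated wild-type liver, from 0.68 for Bysl to 1.85 for Rrp9. Of all genes, 50.6% did. Utp18, a processome component, had 1.76 in treated TMX-null, 0.21 in untreated TMX-null and 0.22 in treated wild-type liver. Rrp12, which acts in maturation and export of the subunits, had 1.62 in treated TMX-null, -0.33 in untreated TMX-null and 0.32 in treated wild-type liver, and its difference between treated and untreated TMX-null liver (1.95) was close to that of Nhp2 (1.97), the largest. Nop14 had 1.55 in treated TMX-null, 0.55 in untreated TMX-null and 0.51 in treated wild-type liver. Tsr1, a factor of late small subunit maturation known from yeast, had 1.45 in treated TMX-null, 0.20 in untreated TMX-null and 0.12 in treated wild-type liver. Wdr43, a WD-repeat protein of the processome, had 1.24 in treated TMX-null, 0.22 in untreated TMX-null and -0.21 in treated wild-type liver. In these 5 genes the untreated TMX-null and the treated wild-type ratio both lay under 2-fold and treated TMX-null liver stood apart.

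The remaining processome and small subunit genes had smaller ratios in treated TMX-null liver. Utp20 had 1.04 in treated TMX-null, 0.38 in untreated TMX-null and 0.22 in treated wild-type liver, and Heatr1, which also aids transcription by RNA polymerase I, had 0.41 in treated TMX-null, 0.16 in untreated TMX-null and -0.53 in treated wild-type liver. Bysl, which acts in small subunit maturation, had 0.66 in treated TMX-null, -0.35 in untreated TMX-null and -0.01 in treated wild-type liver. Rrp9, a protein of the snoRNP that directs the first cleavages, had 0.50 in treated TMX-null, -0.52 in untreated TMX-null and -1.35 in treated wild-type liver. Rrp9 was the single gene of the list past 2-fold in treated wild-type liver (2.55-fold lower, rank 52 from the lowest of 10179), and the difference of 1.85 between the treated livers thus came mainly from a low value in wild-type liver. Set against untreated TMX-null liver in place of untreated wild-type liver, treated wild-type liver had 0 of 34 genes 2-fold lower and 1 higher. Of all genes, 1.98% were lower and 2.08% higher.

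RNA polymerase I was represented by Polr1e alone, a subunit of the enzyme. It had 1.88 in treated TMX-null, 0.14 in untreated TMX-null and 0.15 in treated wild-type liver, and stood 3.33-fold higher in treated TMX-null than in treated wild-type liver. RefSeq also lists this symbol as an older name of Polr1c, so which of the 2 subunits the probe was made for cannot be told from the name.

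Among the large subunit assembly genes, 8 of 12 were at least 2-fold higher in treated TMX-null than in untreated wild-type liver. Of all genes 13.6% were, and the median of the 12 assembly genes was 1.14. Their medians were 0.13 in untreated TMX-null and 0.23 in treated wild-type liver. All 12 stood higher in treated TMX-null than in treated wild-type liver, as 50.6% of all genes did. In that comparison 6 of 12 were at least 2-fold higher, where 9.64% of all genes were. Mrto4, whose yeast counterpart aids assembly of the subunit's stalk, had 1.68 in treated TMX-null, 0.18 in untreated TMX-null and 0.60 in treated wild-type liver. Nip7 had 1.44 in treated TMX-null, 0.46 in untreated TMX-null and 0.12 in treated wild-type liver. Ebna1bp2 had 1.35 in treated TMX-null, 0.04 in untreated TMX-null and 0.26 in treated wild-type liver. These 3 were under 2-fold on the other 2 arrays, as was every gene with a value on all 3 arrays that was past 2-fold in treated TMX-null liver. Ftsj3, an RNA methyltransferase family member, had 1.33 in treated TMX-null, 0.23 in untreated TMX-null and 0.39 in treated wild-type liver, and Ppan had 1.16 in treated TMX-null, -0.15 in untreated TMX-null and -0.17 in treated wild-type liver.

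Rrs1 and the GTP-binding protein nucleostemin, encoded by Gnl3, had close values. Gnl3 had 1.14 in treated TMX-null, 0.56 in untreated TMX-null and 0.13 in treated wild-type liver, and Rrs1 had 1.13 in treated TMX-null, 0.51 in untreated TMX-null and 0.07 in treated wild-type liver. The related gene Gnl2 had 0.63 in treated TMX-null, 0.08 in untreated TMX-null and 0.01 in treated wild-type liver. Wdr74 had 0.87 in treated TMX-null, -0.01 in untreated TMX-null and 0.28 in treated wild-type liver. Neither Gnl2 nor Wdr74 was past 2-fold in any comparison. Nop2, which methylates cytosine in ribosomal RNA of the large subunit, had 0.46 in treated TMX-null, -0.75 in untreated TMX-null and 0.27 in treated wild-type liver. It had the lowest ratio of the list in untreated TMX-null liver, so treated TMX-null liver stood 2.31-fold above untreated TMX-null liver but 1.14-fold above treated wild-type liver, which is within the SD of a single probe.

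Pes1, Bop1 and Wdr12 form a complex that processes the RNA of the large subunit. Wdr12 had 1.15 in treated TMX-null, 0.43 in untreated TMX-null and 0.19 in treated wild-type liver, and Bop1 had 0.85 in treated TMX-null, -0.05 in untreated TMX-null and 0.38 in treated wild-type liver. Pes1 had 1.84 in treated TMX-null liver and was blank on the other 2 arrays. Rrp1b, a nucleolar protein related to a yeast processing factor, likewise had 2.07 in treated TMX-null liver and blanks elsewhere, and Nop16 had 0.73 in untreated TMX-null liver alone. The rule behind blank cells is not given in the sources used here, so these 3 genes are in none of the counts.

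Of the abundant nucleolar proteins with several roles, 2 of 4 were at least 2-fold higher in treated TMX-null than in untreated wild-type liver. Of all genes, 13.6% were. Npm1, a nucleolar chaperone that shuttles to the cytoplasm, had 1.97 in treated TMX-null, 0.28 in untreated TMX-null and 0.56 in treated wild-type liver. Ncl, nucleolin, had 1.93 in treated TMX-null, 0.32 in untreated TMX-null and 0.71 in treated wild-type liver. Npm3, a relative of Npm1, had 0.94 in treated TMX-null, -0.18 in untreated TMX-null and -0.05 in treated wild-type liver, and the helicase gene Ddx21 had 0.67 in treated TMX-null, 0.03 in untreated TMX-null and -0.23 in treated wild-type liver.

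In the comparison of treated TMX-null with treated wild-type liver, the medians of the role groups were 1.19 for 8 snoRNP genes, 1.30 for 9 processome and small subunit genes, 0.98 for 12 large subunit genes and 1.10 for 4 nucleolar genes with several roles. These medians lie 0.32 apart at most, Polr1e alone stood at 1.73, and the differences between the groups were not tested. Genes at least 2-fold higher numbered 4 of 8, 6 of 9, 6 of 12 and 2 of 4 in the same groups, where 9.64% of all genes were.

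The rest of the pathway was read from 5 further lists with 106 measured genes. In the comparison of treated TMX-null with treated wild-type liver, 27 of 106 were at least 2-fold higher and 0 lower. Of all genes, 9.64% were higher and 10.6% lower. The median of the 106 was 0.73, and 96 of 106 were above 0, as 50.6% of all genes were. Other large subunit factors had a median of 0.82 (12 of 39 higher), other processome factors 0.63 (6 of 40), other RNA polymerase I factors 0.86 (3 of 8), other snoRNP factors 0.89 (2 of 7) and the nuclear exosome, which trims RNA precursors, 0.63 (4 of 12). Nle1, which acts in large subunit maturation, had 1.90 in treated TMX-null, 0.59 in untreated TMX-null and -0.35 in treated wild-type liver. Tcof1, treacle, a factor of ribosomal RNA transcription, had 1.55 in treated TMX-null, 0.40 in untreated TMX-null and -0.46 in treated wild-type liver. Mphosph6, a protein of the exosome, had 1.84 in treated TMX-null, -0.13 in untreated TMX-null and -0.06 in treated wild-type liver. At the other end, Pih1d1, part of a complex that assembles snoRNPs, had -0.88 in treated TMX-null, -0.09 in untreated TMX-null and -0.04 in treated wild-type liver, and the processome gene Rcl1 had -0.77 in treated TMX-null, 0.07 in untreated TMX-null and 0.01 in treated wild-type liver. Neither was past 2-fold.

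**Figure D3:**
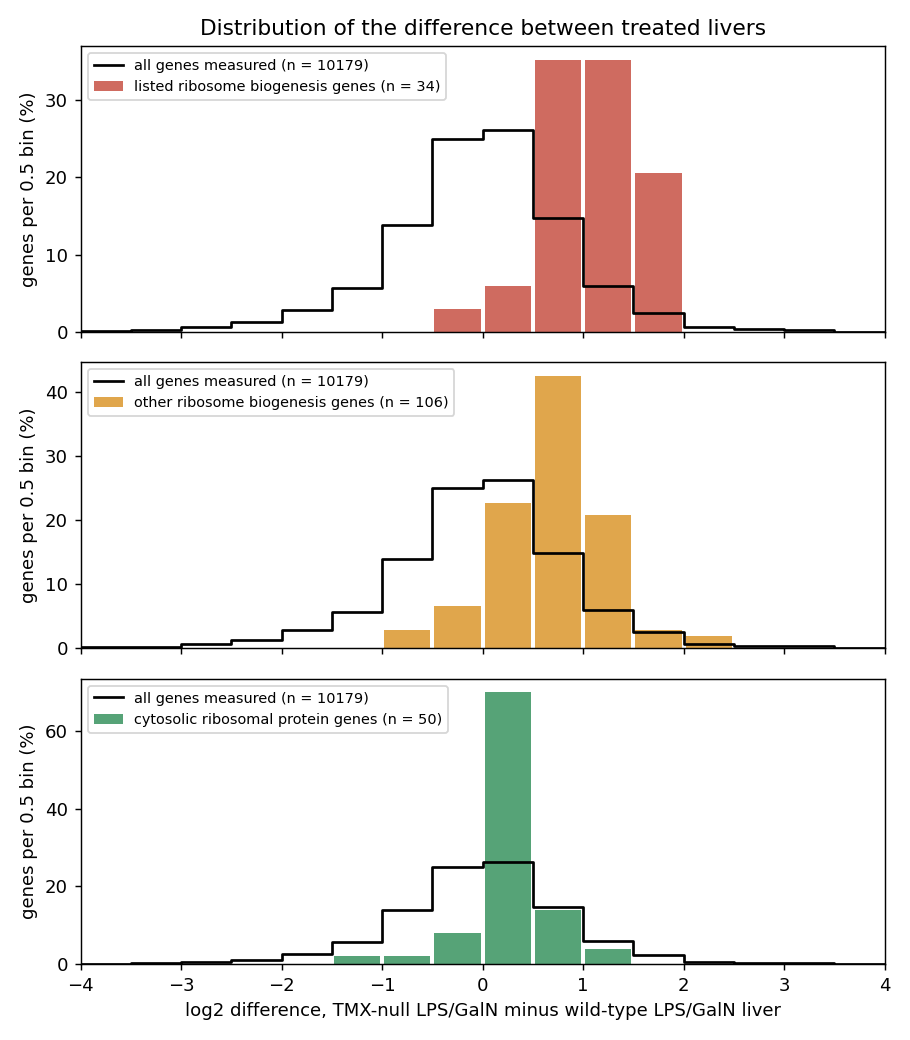
Share of genes (y axis, percent) in bins 0.5 wide of the log2 difference between treated TMX-null and treated wild-type liver (x axis), for the 34 listed genes, 106 other ribosome biogenesis genes and 50 cytosolic ribosomal protein genes (bars) over the 10179 genes measured (line). The medians are 1.05, 0.73 and 0.19, against 0.011 for all genes.

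Cytosolic ribosomal protein genes, which encode the ribosome's own proteins, stood lower than its assembly factors in this comparison. Their median was 0.19 between treated TMX-null and treated wild-type liver. Of the 50, 2 were at least 2-fold higher (9.64% of all genes) and 1 lower (10.6%). Above 0 were 44 of the 50, as were 50.6% of all genes. Against untreated wild-type liver their median was 0.65 in treated TMX-null, 0.01 in untreated TMX-null and 0.43 in treated wild-type liver. In treated wild-type liver it was thus above the 0.20 of the assembly genes, and in treated TMX-null liver below their 1.15.

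Of the growth regulators, Myc, a transcription factor known to act on ribosome biogenesis genes, had 1.52 in treated TMX-null, -1.04 in untreated TMX-null and -0.32 in treated wild-type liver. Its partner Max had 0.73 in treated TMX-null, -0.24 in untreated TMX-null and 0.25 in treated wild-type liver, and the antagonist Mxi1 had -0.42 in treated TMX-null, 0.04 in untreated TMX-null and -0.25 in treated wild-type liver. Mnt, a further antagonist, had -0.40 in treated TMX-null, -0.95 in untreated TMX-null and -0.47 in treated wild-type liver. Mybbp1a, a nucleolar protein that binds MYB, had 1.78 in treated TMX-null, 0.07 in untreated TMX-null and 0.49 in treated wild-type liver. Cdkn1a, the cell cycle inhibitor p21 induced by p53, had 4.33 in treated TMX-null, 0.20 in untreated TMX-null and 3.18 in treated wild-type liver. Mdm2, the ubiquitin ligase of p53, had 1.37 in treated TMX-null, -0.22 in untreated TMX-null and 0.33 in treated wild-type liver. Gadd45a, a gene induced by DNA damage, had 0.57 in treated TMX-null, -0.20 in untreated TMX-null and -0.90 in treated wild-type liver. These are the 8 of 12 listed regulators that were measured. Cell cycle genes had a median difference of 0.97 between treated TMX-null and treated wild-type liver. Of 17 measured, 7 were at least 2-fold higher, where 9.64% of all genes were. Mcm4 (2.31), a subunit of the replicative helicase, led them, while Top2a stood at -0.30.

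**Figure D4:**
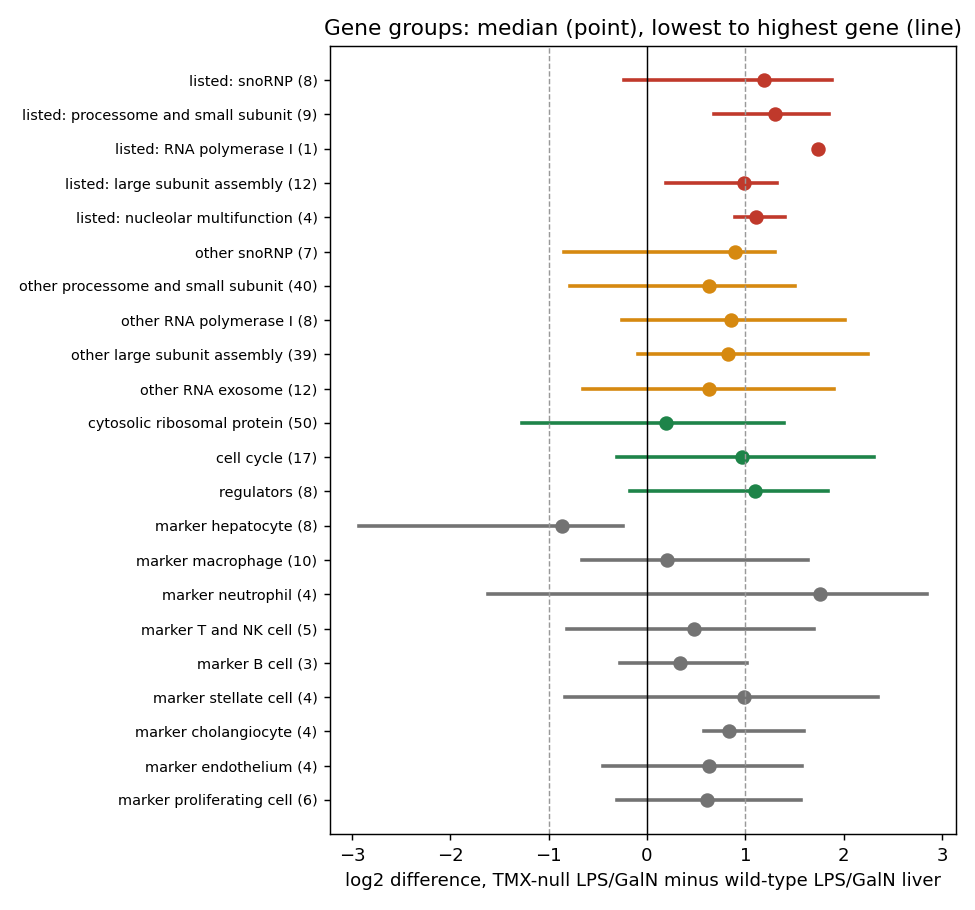
Log2 difference between treated TMX-null and treated wild-type liver (x axis) for gene groups (y axis, number of genes measured in parentheses); points are medians, lines run from the lowest to the highest gene, and dashed lines mark 2-fold. The listed groups with over 1 gene have medians of 0.98 to 1.30, cytosolic ribosomal proteins 0.19 and hepatocyte markers -0.87.

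Markers of liver cells were read beside these genes. Hepatocyte markers, of which 8 of 10 were measured, had a median of -1.83 in treated TMX-null, -0.41 in untreated TMX-null and -0.22 in treated wild-type liver. In treated TMX-null liver they ran from -4.47 to -0.14, and 5 of 8 were at least 2-fold lower, as were 13.2% of all genes. Macrophage markers had medians of 1.46 in treated TMX-null, 0.73 in untreated TMX-null and 1.19 in treated wild-type liver. At least 2-fold higher were 8 of 10, 3 of 10 and 8 of 10 of them, where 13.6%, 1.78% and 2.8% of all genes were. Between the treated livers the median difference of the macrophage markers was 0.21. Of these 10, 1 was at least 2-fold higher, where 9.64% of all genes were, and 4 were below 0. Neutrophil markers (4 measured), T and NK cell markers (5), stellate cell markers (4), cholangiocyte markers (4), endothelial markers (4) and B cell markers (3) had median differences of 1.76, 0.47, 0.98, 0.83, 0.63 and 0.34 between the treated livers. The neutrophil markers did not move together, with S100a8 at 2.85, S100a9 at 2.65 and Ly6g at -1.61, and of the stellate cell markers Reln stood at -0.83. Also below 0 were the T and NK cell marker Nkg7 (-0.81), the endothelial marker Kdr (-0.44) and the B cell marker Ighm (-0.28). The only one of 6 monocyte markers measured, S100a4, stood at 4.74. Proliferating cell markers, which are partly the cell cycle genes above, stood at 0.61, with Mki67 at -0.03. The part of cell composition in the values of the ribosome biogenesis genes was not tested, and in bulk liver a change in the share of a cell type and a change in its RNA per cell cannot be told apart. Ratios give no level, so they do not show which cell types were present.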

How the data were processed

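The authors deposited log ratios, 1 column per array, read here as log2. Neither the base nor the numerator is stated; the values do not settle the base, and the natural logarithm was tried as an alternative. Labelling used amino allyl RNA and a Toray protocol, per the labels' protocols. For image analysis, background correction and normalization, the methods were not given in the sources used. The table had 23473 rows, of which 16631 have 1 symbol in GEO's platform annotation, 0 several and 6842 none. Symbols were updated through RefSeq synonyms (GRCm38.p6): 12622 were current, 3947 renamed and 62 kept; 14 of the listed genes' rows were renamed. RefSeq also gives Npm1 as a synonym of Gja1.

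Rows of a gene with a value on all arrays were averaged and each array centred on its median over 10179 genes (shifts of -0.07, -0.03 and -0.05 for treated TMX-null, untreated TMX-null and treated wild-type). Differences between arrays were taken per gene. With 1 array a group no test was run; the number of arrays limits the precision, and the spread between mice is unknown. Code was tested on simulated data. Members, role groups and lists were chosen with earlier results of these data known; cytosolic ribosomal proteins were taken by symbol (Rpl, Rps). All listed genes may be named; of other lists, the 3 highest and 2 lowest between treated livers, and all regulators. Analyses used Python 3.11.15, pandas 2.3.3 and numpy 2.4.6.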

Additional observations from a re-analysis of the deposited data

Results flagged for a closer look

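In 10 of the 34 genes the response to LPS/GalN had opposite signs in TMX-null liver (treated minus untreated) and in wild-type liver, each on 1 array per state, and the difference of the responses was not tested. Of all genes, 36.5% had opposite signs, a larger share than the 29.4% of the list. The TMX-null response minus the wild-type response was 2.37 for Rrp9, 1.61 for Gar1, 1.48 for Ppan, 1.23 for Wdr43, 1.17 for Npm3, 1.03 for Bysl, 0.87 for Ddx21, 0.78 for Heatr1, 0.34 for Nolc1 and -0.32 for Nop10. In 9 of the 10 the TMX-null response was above 0 and the wild-type response below 0, and Nop10 was the reverse. Of all genes, 18.2% had a TMX-null response above 0 and a wild-type response below 0, against 26.5% of the list. Rrp9 and Heatr1 alone of these had a wild-type response larger in size than the SD of a single probe, at -1.35 and -0.53. Their TMX-null responses were 1.02 and 0.25, and that of Heatr1 was within the SD of a single probe (0.67). Genes with responses of the same sign also differed, for example Rrp12 by 1.63, Polr1e by 1.60 and Nop56 by 1.49. The untreated wild-type RNA enters the wild-type response and, if its preparation was the same, cancels in the other.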

How the results depend on the processing

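With centring on all named genes, no centring, the first probe of each gene or every gene with a value, the median of the list was 1.07 to 1.20 in treated TMX-null, 0.17 to 0.21 in untreated TMX-null and 0.15 to 0.20 in treated wild-type liver. It was 0.97 to 1.02 between treated and untreated TMX-null liver and 1.02 to 1.05 between the treated livers, and the counts stayed within 1.5 times. Scaling the arrays to the same SD shrinks the treated TMX-null array, and the genes 2-fold higher numbered 10 in treated TMX-null against untreated wild-type liver, 3 against untreated TMX-null and 3 against treated wild-type liver. The snoRNP median was then 0.17 against untreated TMX-null and 0.53 against treated wild-type liver, Polr1e stood at 0.94 and 0.97, and Nop58 turned to -0.19 against untreated TMX-null liver. Of 170 single values under this scaling, 34 others moved by over the SD of a single probe. Scaling also gave 2 of 34 genes higher (5.90% of all genes) and 1 lower (4.52%) in untreated TMX-null liver, and 1 higher (5.84%) in treated wild-type liver. Read as natural logarithms, 2 were higher (4.75%) and 1 lower (3.44%) in untreated TMX-null and 2 higher (7.07%) in treated wild-type liver, and the median of the list was 1.66 in treated TMX-null liver. At 1.5-fold, 2 were higher (6.98%) and 1 lower (5.56%) in untreated TMX-null, 3 higher (9.78%) in treated wild-type liver, and 31 higher (21.1%) between the treated livers. Annotation symbols as given leave 22 genes, of which 14, 11 and 10 (13.6%, 11.4% and 9.63% of all genes) were higher in treated TMX-null liver against untreated wild-type, untreated TMX-null and treated wild-type liver, and 0 were lower in treated wild-type liver. Against untreated TMX-null liver, treated wild-type liver had 1 gene higher (2.08%) and 0 lower (1.98%). No paired analysis was possible because each group had 1 array. There are no signal values, so dim probes cannot be told from bright ones.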
